A study of Homo sapiens with 36 samples.

Results

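The genes described here are 3 nuclear receptors and 6 of their targets in lipid handling: NR1H3 (LXR alpha), NR1H2 (LXR beta), PPARG, ABCA1, ABCG1, MYLIP, SMPDL3A, LPCAT3 and CES1. They are 9 of 35472 gene symbols and were listed by name, with their A9 against DMSO values already known. Those values are therefore given as a description, with no p-value for a member. RNA came from lines of acute myeloid leukaemia, the human MOLM-13 and the human MONO-MAC-6, both labelled as wild type, after 72 h with vehicle (DMSO) or with A9. A9 is labelled a PROTAC, a compound that brings a target protein to the ubiquitin system for degradation, and the series names NR4A1 and an IKK kinase as its targets (IKK2 in the design text, IKK1 in the title). MOLM-13 cells received 0.125 µM and MONO-MAC-6 cells 0.25 µM. Each of the 4 groups held 9 libraries, and each sample is the average of the 3 libraries with the same first number in their names, giving 3 samples per group. The labels do not say which number marks the sample, so this is an assumption. Averaging by the second number instead gave 5437 genes past the threshold in place of 14 in MOLM-13, and 8701 in place of 433 in MONO-MAC-6.

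LXR alpha and LXR beta bind oxysterols and, paired with an RXR receptor, raise transcription of genes that export cholesterol and make fatty acids. PPARG binds fatty acid derivatives, also pairs with RXR, and drives lipid uptake and storage genes in macrophages and adipocytes. When sterols are plentiful, oxysterols activate LXR while the SREBP2 pathway of cholesterol synthesis is shut down, so the LXR targets are commonly read beside the synthesis genes.

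In MONO-MAC-6, CES1 was 2.95-fold higher with A9 and NR1H3 1.59-fold higher, while NR1H2 differed by -0.02 on the log2 scale and the cholesterol exporters ABCA1 and ABCG1 stayed under 1 TPM. PPARG was 1.20-fold higher in total there, with 92.3% of the difference in transcripts from its downstream starts. In MOLM-13 the log2 fold changes of the 9 genes lay between -0.19 and 0.31, and PPARG was near 0 in both groups. Sterol synthesis genes, whose lower level with A9 in MONO-MAC-6 was known when the genes were listed, are described beside them.

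The values are TPM, transcript abundances per length, scaled to a fixed library total and summed over the annotated transcripts of a symbol. They carry no counts, so depth is unknown and the error given is the SD between samples. The labels do not say that the samples were separate cultures, so this spread may be technical. In bulk RNA, fewer cells of a type and less RNA per cell cannot be told apart. MONO-MAC-6 DMSO sample 1 lay apart from the other 5 samples of that line on the first principal component, which held 70.2% of the variance, so results in that line are also given without it. Without it, the median gene of MONO-MAC-6 had a log2 fold change of 0.027 in place of 0.16, and it was 0.020 with median-ratio scaling. Of the genes called there, 74.6% were higher with A9, and 62.7% with that scaling. Myeloid markers were present in both lines. Their summed TPM ran from 744 to 770 with DMSO and from 971 to 1075 with A9 in MOLM-13. In MONO-MAC-6 the sums ran from 3820 to 4324 and from 8446 to 8725. LYZ, the lysozyme of myeloid cells, went from 133 to 327 TPM in MOLM-13 (limma adjusted p 0.00517) and from 3413 to 7681 TPM in MONO-MAC-6 (limma adjusted p 0.00274), where it made up most of the sum. CD14 went from 3.14 to 13.03 TPM in MONO-MAC-6, while ITGAM stood at 2.98 and 3.01 TPM and MPO at 51.9 and 37.7 TPM. CSF1R stood at 0.511 and 0.802 TPM there, and in MOLM-13 CD14 stood at 0.295 and 0.335 TPM. For 8 macrophage markers the sums were 36.2 to 45.9 and 41.4 to 53.9 in MOLM-13, and 42.8 to 63.1 and 162 to 185 in MONO-MAC-6, where CD68 made up most of it at 52.5 and 172.8 TPM. C1QA, C1QB and C1QC were listed at 0 in every sample, and CD163, MRC1 and VSIG4 had means under 1 TPM in every group. The T cell list summed to 3.83 to 4.56 TPM with DMSO and 1.20 to 1.72 TPM with A9 in MOLM-13, and to 5.32 to 7.36 and 1.42 to 2.04 TPM in MONO-MAC-6. The epithelial list went from 5.88 to 6.08 TPM to 3.50 to 3.77 TPM in MOLM-13, and from 13.9 to 16.3 TPM to 8.00 to 9.29 TPM in MONO-MAC-6. B cell, erythroid and fibroblast sums did not exceed 10.7 TPM, and the B cell sum was 9.33 to 10.7 TPM with DMSO and 5.998 to 6.78 TPM with A9 in MONO-MAC-6. The part of these markers in the results below was not tested. Summed hepatocyte markers, given because CES1 is abundant in liver, did not exceed 1.47 TPM, and adipocyte markers reached 7.55 TPM with A9 in MONO-MAC-6, mostly FABP4, which is also a PPARG target.

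Promoter sequences were read to show annotated start regions of the genes. Of the 9 genes, NR1H3, NR1H2, PPARG, ABCA1, MYLIP and LPCAT3 had entries in the RefSeq promoter table (GRCh38.p14, 250 bases before to 50 after a start), 14 windows in all, and ABCG1, SMPDL3A and CES1 had none. Both strands were searched for the hexamer AGGTCA bound by these receptors, for that hexamer repeated in the same direction with 4 bases between, as LXR with RXR prefers, and for the repeat with 1 base between, as PPARG with RXR prefers, each repeat with up to 2 mismatches. The repeats can overlap the single hexamer. Over 35116 windows of all genes, 13.8% held the hexamer, 2.34% the repeat spaced by 4 and 2.97% the repeat spaced by 1. The hexamer was in 4 of the 14 windows, 3 of PPARG and 1 of NR1H3, but 2 of the PPARG windows overlap and share the same hexamer. The repeat spaced by 4 was in 1 window and the repeat spaced by 1 in 0.

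ABCA1 is shown because its window held the repeat spaced by 4, on the minus strand of the gene at position -69 from the start, with 2 mismatches (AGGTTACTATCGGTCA). The window lies at chr9:104928106-104928405 (minus strand), and capitals mark the match.
ABCA1: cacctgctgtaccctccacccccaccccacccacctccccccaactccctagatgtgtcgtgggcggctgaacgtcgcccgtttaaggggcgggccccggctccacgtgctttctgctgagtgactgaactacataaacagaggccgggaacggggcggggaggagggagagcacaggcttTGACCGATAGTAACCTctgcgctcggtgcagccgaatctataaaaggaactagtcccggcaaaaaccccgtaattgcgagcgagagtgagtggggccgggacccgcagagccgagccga

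PPARG and NR1H3 are shown because their start regions differed in response. The upstream PPARG window, chr3:12287118-12287417 (plus strand), held the hexamer at -217 and -184 (capitals). It covers the start of PPARG-205, at 0.302 TPM in MONO-MAC-6 with DMSO. The most abundant upstream transcripts, PPARG-202 (14.2 TPM) and PPARG-207 (11.5 TPM), start past its end, at 12287860 and 12287901. The downstream window, chr3:12351167-12351466 (plus strand), covers the RefSeq start nearest to the downstream transcripts and had no match.
PPARG upstream: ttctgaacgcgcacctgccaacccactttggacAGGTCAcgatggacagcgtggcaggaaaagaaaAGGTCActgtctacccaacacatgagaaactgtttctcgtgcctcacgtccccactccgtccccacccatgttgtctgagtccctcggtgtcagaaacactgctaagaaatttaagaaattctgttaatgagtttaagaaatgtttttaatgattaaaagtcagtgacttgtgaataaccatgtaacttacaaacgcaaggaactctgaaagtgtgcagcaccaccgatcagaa
PPARG downstream: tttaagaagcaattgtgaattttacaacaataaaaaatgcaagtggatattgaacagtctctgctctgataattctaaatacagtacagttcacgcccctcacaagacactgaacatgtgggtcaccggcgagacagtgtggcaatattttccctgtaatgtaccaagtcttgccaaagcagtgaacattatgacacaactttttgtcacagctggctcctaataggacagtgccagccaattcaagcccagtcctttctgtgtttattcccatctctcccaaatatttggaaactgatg

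The upstream NR1H3 window at chr11:47248645-47248944 and the internal window at chr11:47257746-47258045 (plus strand) had no match, so no base is in capitals. The NR1H3 window that held the hexamer, at -140, is the most upstream, chr11:47248050-47248349.
NR1H3 upstream: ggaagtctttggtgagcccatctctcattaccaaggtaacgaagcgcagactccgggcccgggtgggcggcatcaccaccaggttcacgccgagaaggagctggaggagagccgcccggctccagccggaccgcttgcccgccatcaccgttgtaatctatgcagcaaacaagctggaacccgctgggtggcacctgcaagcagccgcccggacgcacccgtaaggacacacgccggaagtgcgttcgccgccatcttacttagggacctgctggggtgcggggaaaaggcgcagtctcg
NR1H3 internal: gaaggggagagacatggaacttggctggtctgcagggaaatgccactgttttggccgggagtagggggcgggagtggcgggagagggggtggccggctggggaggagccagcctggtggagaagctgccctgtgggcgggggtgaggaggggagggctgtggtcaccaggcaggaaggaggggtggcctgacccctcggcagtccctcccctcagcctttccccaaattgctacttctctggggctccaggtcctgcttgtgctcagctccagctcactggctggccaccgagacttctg

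The receptors were compared first. NR1H3 (ENSG00000025434, chromosome 11, 47248300 to 47269032, plus strand), the LXR of macrophages and liver, stood at 18.7, 16.5 and 16.5 TPM in the MONO-MAC-6 DMSO samples and at 23.1, 30.9 and 28.0 TPM with A9. Every A9 sample was above every DMSO sample. Its mean was 17.2 ± 1.27 TPM with DMSO and 27.3 ± 3.95 TPM with A9 (SD, n = 3), and the log2 fold change of TPM + 1 was 0.63 (SE 0.14 in the limma fit, as for all SE here), or 0.69 when DMSO sample 1 was left out and 0.48 under median-ratio scaling. In MOLM-13 its level was lower, at 3.57, 3.47 and 3.92 TPM with DMSO and 4.31, 3.56 and 3.79 TPM with A9, and the groups overlapped. The log2 fold change there was 0.07 (SE 0.12).

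NR1H2 (ENSG00000131408, chromosome 19, 50329653 to 50382982, plus strand), the LXR found in most tissues, was the more abundant LXR in both lines. Its MONO-MAC-6 values were 62.7, 57.0 and 56.6 TPM with DMSO and 59.8, 56.0 and 58.1 TPM with A9. The groups overlapped, and the log2 fold change was -0.02 (SE 0.083), or -0.18 with median-ratio scaling. In MOLM-13 it stood at 35.6, 35.7 and 38.7 TPM with DMSO and 36.4, 39.8 and 36.8 TPM with A9, for which the log2 fold change was 0.04 (SE 0.077). As TPM are per length, the LXR messages can be set side by side: NR1H3 made up 22.6 ± 0.276% (SD, n = 3) of their sum with DMSO and 32.0 ± 3.88% (SD, n = 3) with A9 in MONO-MAC-6. The 3 DMSO samples lay between 22.4% and 22.9% and the 3 A9 samples between 27.9% and 35.6%, a ratio that library scaling does not touch. In MOLM-13 the share was 9.05 ± 0.183% and 9.38 ± 1.18% (SD, n = 3), and the groups overlapped. The sums of both genes include transcripts annotated as retaining an intron, so the share is not one of protein-coding messages alone.

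PPARG (ENSG00000132170, chromosome 3, 12287368 to 12434356, plus strand) was listed at 0 in 17 of 18 MOLM-13 libraries, with 0.0284 TPM in the other. In MONO-MAC-6 it stood at 32.6, 32.2 and 38.9 TPM with DMSO and at 39.9, 43.4 and 41.3 TPM with A9. The groups did not overlap, but the highest DMSO and the lowest A9 sample were close. Its mean was 34.6 ± 3.76 TPM with DMSO and 41.5 ± 1.74 TPM with A9 (SD, n = 3), and the log2 fold change was 0.26 (SE 0.11), or 0.22 when DMSO sample 1 was left out and 0.10 under median-ratio scaling.

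**Figure D1:**
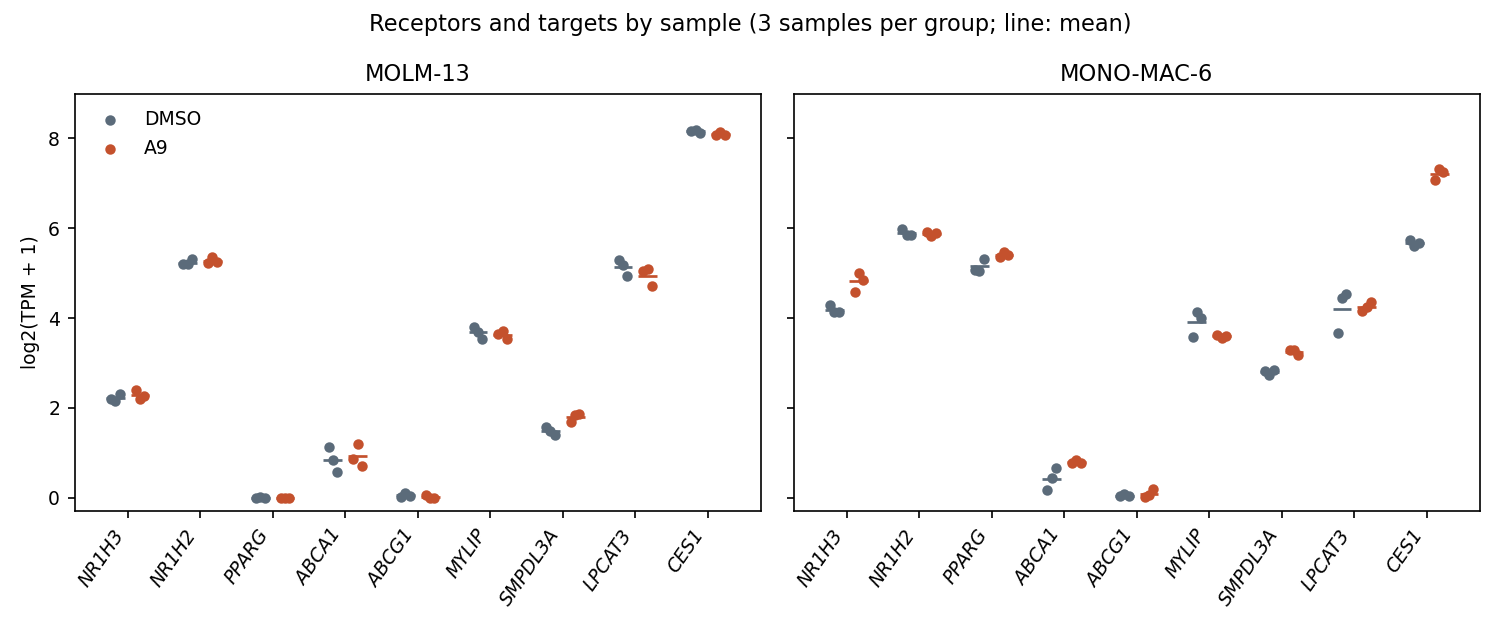
Level of each gene as log2(TPM + 1) in the 3 DMSO and 3 A9 samples of each line, points for samples and lines for group means. CES1 and NR1H3 with A9 sit above DMSO in MONO-MAC-6, and PPARG, at 34.6 TPM there with DMSO, sits near 0 in MOLM-13.

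Transcripts were then grouped by start site, joining starts within 1000 bases. Splitting a gene's TPM among its transcripts rests on the program's division of shared reads, so these values are less certain than the gene sums. The downstream PPARG starts (12351472 to 12351569), used by the PPARG2 form known from adipocytes, summed to 3.99, 3.96 and 3.63 TPM with DMSO and 8.68, 11.5 and 10.7 TPM with A9. All A9 samples were above all DMSO samples, a 2.66-fold difference in means. Transcripts from the upstream starts (12287368 to 12289111), known for the PPARG1 form, summed to 27.1, 26.2 and 32.7 TPM with DMSO and 29.7, 29.8 and 28.5 TPM with A9, and these overlapped. The downstream starts made up 11.2% of the gene's TPM with DMSO and 24.7% with A9, and held 92.3% of the difference between the group means. Within them, transcript PPARG-201 (ENST00000287820) went from 3.84 ± 0.226 to 9.56 ± 1.21 TPM (SD, n = 3). Of 17 annotated PPARG transcripts, 16 were in the tables.

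NR1H3 also differed by start. In MONO-MAC-6 the internal starts (47257604 to 47260397) summed to 6.02, 6.83 and 8.00 TPM with DMSO and 10.9, 15.9 and 14.0 TPM with A9, 1.96-fold higher in the means. The upstream starts (47248300 to 47248956) summed to 6.44, 5.69 and 6.23 TPM with DMSO and 6.96, 8.59 and 7.33 TPM with A9, 1.25-fold higher. Both groups of starts were above DMSO in every A9 sample. In MOLM-13 the upstream starts held 69.9% of NR1H3 TPM with DMSO and the internal starts 12.1%, against 35.6% and 40.4% in MONO-MAC-6. The starts near the gene's end (47267945 to 47268141) held another 24.0% in MONO-MAC-6 DMSO samples.

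**Figure D2:**
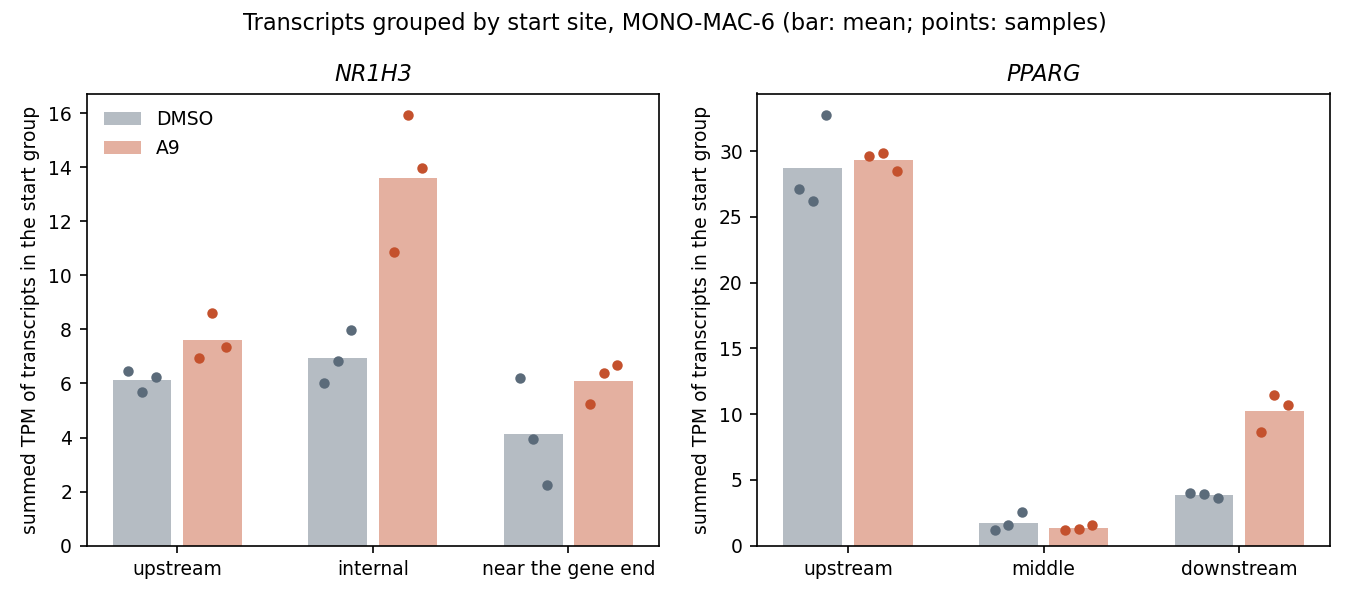
Summed TPM of transcripts by start group for NR1H3 and PPARG in MONO-MAC-6, bars for means of 3 samples and points for samples, without PPARG starts whose means were under 1 TPM. The downstream PPARG starts went from a mean of 3.86 to 10.3 TPM while the upstream starts stood at 28.7 and 29.3 TPM, and the internal NR1H3 starts went from 6.95 to 13.6 TPM.

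Among the targets, the sterol exporters were scarce. ABCA1 (ENSG00000165029, chromosome 9, 104781002 to 104928237, minus strand) moves cholesterol onto apolipoprotein A-I and is the classical LXR target. It had 0.132, 0.365 and 0.574 TPM in the MONO-MAC-6 DMSO samples and 0.714, 0.776 and 0.703 TPM with A9. The groups did not overlap, but all values were under the 1 TPM minimum. Its log2 fold change was 0.36 with a pseudocount of 1, 0.99 with 0.1, 0.24 without DMSO sample 1 and -0.0094 with each sample's trend on transcript length removed, so no direction is given for it. In MOLM-13 it ranged from 0.492 to 1.20 TPM with DMSO and from 0.627 to 1.29 TPM with A9. ABCG1 (ENSG00000160179, chromosome 21, 42199689 to 42297244, plus strand), which passes cholesterol to HDL, did not exceed 0.289 TPM in any library of either line. It was listed at 0 in 8 of 18 libraries of MOLM-13 and 7 of 18 of MONO-MAC-6.

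MYLIP (ENSG00000007944, chromosome 6, 16129125 to 16148248, plus strand) encodes IDOL, a ubiquitin ligase through which LXR limits cholesterol uptake. It stood at 11.0, 16.6 and 14.9 TPM with DMSO and 11.4, 10.8 and 11.0 TPM with A9 in MONO-MAC-6. DMSO sample 1 was as low as the A9 samples, and the other DMSO samples were above them. The log2 fold change was -0.31 (SE 0.17), or -0.47 without DMSO sample 1. In MOLM-13 it was 13.03, 11.9 and 10.6 TPM with DMSO and 11.6, 12.1 and 10.6 TPM with A9, which overlapped. LPCAT3 (ENSG00000111684, chromosome 12, 6976186 to 7018510, minus strand), which puts polyunsaturated fatty acids into phospholipids, was 11.6, 20.9 and 22.02 TPM with DMSO and 16.9, 17.9 and 19.5 TPM with A9 in MONO-MAC-6. Its log2 fold change was 0.04 (SE 0.24) and turned to -0.23 without DMSO sample 1. In MOLM-13 LPCAT3 went from 34.4 ± 4.47 to 30.0 ± 4.27 TPM (SD, n = 3), with overlapping samples.

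SMPDL3A (ENSG00000172594, chromosome 6, 122789049 to 122809720, plus strand), a secreted phosphodiesterase induced by LXR in human macrophages, was higher with A9 in both lines. Its MOLM-13 values were 1.97, 1.81 and 1.64 TPM with DMSO and 2.22, 2.58 and 2.66 TPM with A9. Its MONO-MAC-6 values were 6.09, 5.67 and 6.20 TPM with DMSO and 8.78, 8.70 and 8.05 TPM with A9. The groups did not overlap in either line, and the ratio of A9 to DMSO means was 1.38 in MOLM-13 cells and 1.42 in MONO-MAC-6 cells. The log2 fold changes of TPM + 1 were 0.31 (SE 0.11) and 0.44 (SE 0.11), and with median-ratio scaling 0.35 and 0.30.

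CES1 (ENSG00000198848, chromosome 16, 55802851 to 55833337, minus strand), a carboxylesterase of liver and monocytes that splits lipid esters, had the largest log2 fold change of the 9 genes. In MONO-MAC-6 it stood at 52.6, 47.8 and 49.9 TPM with DMSO and 134, 159 and 151 TPM with A9. The lowest A9 sample was far above the highest DMSO sample. Its mean was 50.1 ± 2.40 TPM with DMSO and 148 ± 12.9 TPM with A9 (SD, n = 3), and the log2 fold change was 1.54 (SE 0.094), with 1.58 when DMSO sample 1 was left out and 1.38 under median-ratio scaling. In MOLM-13, where CES1 was more abundant, it stood at 288, 291 and 276 TPM with DMSO and 269, 283 and 267 TPM with A9, for which the log2 fold change was -0.06 (SE 0.054). The CES1P1 pseudogene is a near copy of CES1, which makes the division of reads between them uncertain.

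**Figure D3:**
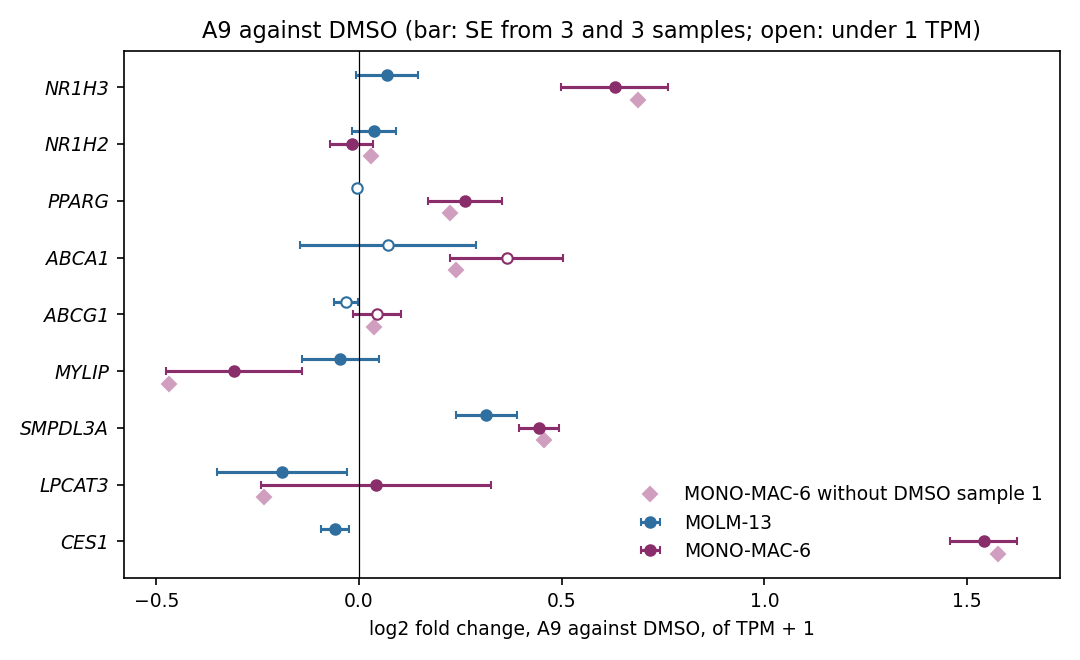
Log2 fold change of TPM + 1, A9 against DMSO, for each gene in MOLM-13 and MONO-MAC-6, with bars for the SE from the gene's own 3 and 3 samples (the text gives the SE of the limma fit, which borrows spread across genes), open points for genes under 1 TPM, and diamonds for MONO-MAC-6 without DMSO sample 1. CES1 lies at 1.54 and NR1H3 at 0.63 in MONO-MAC-6, and LPCAT3 changes side without DMSO sample 1.

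Of the 9 genes, 6 reached a group mean of 1 TPM, the filter, in MOLM-13 cells and 7 did in MONO-MAC-6 cells. In MOLM-13, 0 of 6 had an adjusted p under 0.05 in the limma fit over all genes, where 0.121% of genes did. At an unadjusted p under 0.05 the count was 1 of 6, against 915 of 11596 genes. The MONO-MAC-6 count was 1 of 7, CES1, against 3.36% of all genes, and 4 of 7 without DMSO sample 1, against 24.8%. A9 samples lay wholly above DMSO samples for 4 of 7 in MONO-MAC-6, against 27.2% of all genes, and for 1 of 6 in MOLM-13, against 8.59%. They lay wholly below for 0 of 7, against 10.6%, and for 0 of 6, against 6.42%. Counted in either direction the background was 37.9% in MONO-MAC-6 and 15.0% in MOLM-13. The genes were listed with these contrasts known, so nothing is read from those shares. The difference of the log2 fold changes, MONO-MAC-6 minus MOLM-13, was 1.60 (SE 0.099) for CES1, 0.56 (SE 0.17) for NR1H3, 0.13 (SE 0.13) for SMPDL3A and -0.06 (SE 0.098) for NR1H2. In that fit the count of members past the threshold was 1 of 7, CES1, also with nothing read from it, against 2.99% of all genes (1.92% with the larger effect in MONO-MAC-6 and 1.07% with the smaller). Dose differed along with line, and the effects of dose and line cannot be told apart.

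The order of the levels with DMSO differed between the lines. In MOLM-13 it ran from CES1 at 285 TPM through NR1H2 at 36.7, LPCAT3 at 34.4, MYLIP at 11.9, NR1H3 at 3.65, SMPDL3A at 1.80 and ABCA1 at 0.824 TPM to ABCG1 and PPARG, both under 0.1 TPM. Samples of the neighbours NR1H2 and LPCAT3 overlapped. In MONO-MAC-6 NR1H2 led at 58.8 TPM, followed by CES1 at 50.1, PPARG at 34.6, LPCAT3 at 18.2, NR1H3 at 17.2, MYLIP at 14.1, SMPDL3A at 5.99, ABCA1 at 0.357 and ABCG1 at 0.0340 TPM, and samples of LPCAT3, NR1H3 and MYLIP overlapped. NR1H3 was 4.71 times, SMPDL3A 3.32 times and NR1H2 1.60 times as high in MONO-MAC-6, and CES1 was 5.69 times and LPCAT3 1.89 times as high in MOLM-13. The samples of these genes did not overlap between the lines. The share of all genes that separate the lines in this way was not computed, so nothing is read from that. The lines come from separately deposited tables, so these are levels side by side, with no test.

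The RXR partners and coregulators were read from a list of 12, of which 10 were expressed in each line. In the limma fit of MOLM-13, where 0.0862% of all genes rose and 0.0345% fell, 0 of 10 passed, also 0 at an unadjusted p under 0.05. In that of MONO-MAC-6 0 of 10 passed, with 4 at an unadjusted p under 0.05, against 2631 of 12869 genes. Without DMSO sample 1, 4 passed as higher, in a fit that called 24.8% of all genes. RXRA, the partner of LXR and PPARG, had 10.6, 14.4 and 16.9 TPM with DMSO and 19.6, 19.3 and 19.7 TPM with A9 in MONO-MAC-6. Its A9 samples lay above DMSO, with DMSO sample 1 the lowest, and its log2 fold change was 0.48 (limma adjusted p 0.201), or 0.31 (limma adjusted p 0.0218) without that sample. In MOLM-13 it went from 41.9 ± 4.59 to 36.1 ± 6.36 TPM (SD, n = 3).

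Of 16 other LXR targets, 12 were expressed in MONO-MAC-6. Of these, 3 rose and 1 fell in the limma fit, where 2.51% of all genes rose and 0.855% fell, and the list's median log2 fold change was 0.28 against 0.16 for all genes. MERTK, 1 of the 3, was under 1 TPM with DMSO and entered the fit only through its A9 level, as did 1 other gene. No p-value is given for MERTK. The 10 genes that reached 1 TPM in both groups had a median of 0.15, 6 positive and 4 negative, with 2 that rose and 1 that fell. APOC1, a small apolipoprotein, rose from 78.8, 57.2 and 49.4 TPM to 154, 195 and 179 TPM, by 1.51 on the log2 scale (SE 0.19, limma adjusted p 0.0119). APOE, the apolipoprotein that carries cholesterol out of macrophages, rose from 244, 155 and 172 TPM to 413, 465 and 435 TPM, by 1.22 (SE 0.17, limma adjusted p 0.0191). In both, DMSO sample 1 was the highest of the controls and all A9 samples stood above it. MERTK, a receptor for taking up dying cells, rose from 0.648 ± 0.245 to 3.38 ± 0.306 TPM (SD, n = 3), by 1.42 (SE 0.15). SREBF1, the fatty acid synthesis regulator that LXR normally raises, fell from 45.7, 51.5 and 55.1 TPM to 25.8, 23.7 and 24.2 TPM, with -1.01 on the log2 scale (SE 0.10, limma adjusted p 0.00654). With median-ratio scaling APOE (0.0889) and APOC1 (0.0509) missed the threshold of the limma adjusted p. Without A9 sample 2, and without A9 sample 3, 0 of the 12 passed, in fits that called 59 and 60 genes. Without DMSO sample 2 the count was 2, in a fit that called 119 genes. Without DMSO sample 1, 5 rose and 3 fell, in a fit that called 24.8% of all genes.

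In MOLM-13 7 of these 16 were expressed, 1 of them only through its A9 level. In the limma fit 0 passed, with 1 at an unadjusted p under 0.05, against 915 of 11596 genes. APOE had 0.200 TPM and APOC1 0.637 TPM there with DMSO, and MERTK 0.0138 TPM. SREBF1 went from 95.3 ± 8.47 to 84.8 ± 15.03 TPM (SD, n = 3), with overlapping samples.

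Of 14 other PPARG targets, 13 were expressed in MONO-MAC-6. All 13 had a positive log2 fold change, 6 rose in the limma fit and 0 fell, against 2.51% and 0.855% of all genes, and the median was 1.15 against 0.16. Of these 13, FABP4, OLR1, CIDEC and PDK4 were under 1 TPM with DMSO and entered the fit only through their A9 level. They therefore had to be higher, they are 4 of the 6, and no p-value is given for them. The 9 genes that reached 1 TPM in both groups were all positive, with a median of 0.77, and 2 rose, CYP27A1 and PLIN2. With each sample's length trend removed 12 of 13 were positive. FABP4, a fatty acid carrier of macrophages and adipocytes, rose from 0.184 ± 0.108 to 6.23 ± 1.07 TPM (SD, n = 3), by 2.60 (SE 0.15). OLR1, a receptor for oxidised LDL, rose from 0.522, 0.715 and 0.672 TPM to 8.03, 14.7 and 10.1 TPM, by 2.83 (SE 0.21). CYP27A1, the sterol hydroxylase that makes the LXR ligand 27-hydroxycholesterol, rose from 12.2, 12.8 and 14.4 TPM to 49.8, 63.2 and 56.6 TPM, by 2.02 (SE 0.13, limma adjusted p 0.00136). PLIN2, a lipid droplet coat protein, rose from 39.9, 41.7 and 43.9 TPM to 90.9, 115 and 105 TPM, by 1.28 (SE 0.11, limma adjusted p 0.00321). Leaving out any 1 of the 6 MONO-MAC-6 samples kept CYP27A1 and PLIN2 past the threshold, with limma adjusted p-values up to 0.0387. CIDEC, another lipid droplet protein, rose from 0.0270 to 2.14 TPM, and PDK4, a kinase that spares glucose, from 0.153 to 1.39 TPM. As both entered the fit only through their A9 level, no count of fits passed is given for them. Without DMSO sample 1, 10 of the 13 rose, in a fit that called 24.8% of all genes.

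In MOLM-13, where PPARG was near 0, 5 of the 14 were expressed and 0 passed in the limma fit. At an unadjusted p under 0.05 there was 1, against 915 of 11596 genes. FABP4 and PDK4 were listed at 0 in all 6 samples, and PLIN2 went from 9.62 ± 0.471 to 8.48 ± 0.709 TPM (SD, n = 3), or -0.17 on the log2 scale (limma adjusted p 0.822).

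The sterol synthesis and SREBP2 target list held 26 genes, of which 25 were expressed in each line. The fall of these genes in MONO-MAC-6 was known when the receptors and targets were listed, so their values are a description, no p-value is given for them and they support nothing else here. In MONO-MAC-6, 23 of 25 had a negative log2 fold change, and the median was -0.42 against 0.16 for all genes. In the limma fit 7 were past the threshold as lower and 0 as higher, against 0.855% and 2.51% of all genes. INSIG1, a sterol-sensing brake on SREBP and itself a target of it, had 36.2, 49.0 and 51.0 TPM with DMSO and 19.8, 18.3 and 18.4 TPM with A9, or -1.21 on the log2 scale (SE 0.15). ACAT2, which makes acetoacetyl-CoA, had 104, 94.0 and 97.0 TPM with DMSO and 53.7, 52.4 and 54.8 TPM with A9, or -0.86 (SE 0.078). The synthesis enzymes MSMO1, MVK, MVD and FDPS had -0.80, -0.78, -0.75 and -0.73 on the log2 scale. For all 6 genes the A9 samples lay below every DMSO sample, as they did for 15 of the 25, against 10.6% of all genes. With median-ratio scaling 12 of the 25 were past the threshold, in a fit that called 563 genes. SREBF2, which encodes SREBP2, had 40.8, 67.7 and 76.8 TPM with DMSO and 54.9, 56.5 and 54.0 TPM with A9. DMSO sample 1 was below its A9 samples and the other DMSO samples were above them, and its log2 fold change was -0.11, or -0.38 without that sample. Without DMSO sample 1, 22 of the 25 were past the threshold as lower and 1 as higher, in a fit that called 24.8% of all genes. Without A9 sample 2, and without A9 sample 3, 0 passed, with 23 and 24 of 25 negative, in fits that called 59 and 60 genes. Without A9 sample 1 and DMSO sample 2 in turn the counts were 1 and 2, in fits that called 120 and 119 genes.

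In MOLM-13, 0 of 25 sterol genes passed in the limma fit and 0 had an unadjusted p under 0.05, against 915 of 11596 genes. There were 10 positive and 15 negative, with a median of -0.02 against -0.05 for all genes. INSIG1 had 50.9 ± 5.30 TPM with DMSO and 55.8 ± 6.28 TPM with A9 (SD, n = 3). Of 12 genes of sterol storage, transport and oxysterol enzymes, 10 were expressed in MONO-MAC-6, and 1 of these entered the fit only through its A9 level. The median log2 fold change was 0.30 against 0.16 for all genes, with a lowest value of 0.13. The 9 genes that reached 1 TPM in both groups were all positive, with a median of 0.32. Of the 10, 1 rose, against 2.51% of all genes. It was CYP27A1, which is also in the PPARG list. Without DMSO sample 1, 5 rose, in a fit that called 24.8% of all genes. In MOLM-13, 0 of 9 passed in the limma fit, with 2 at an unadjusted p under 0.05, against 915 of 11596 genes. Of these 9, 1 entered the fit only through its A9 level.

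**Figure D4:**
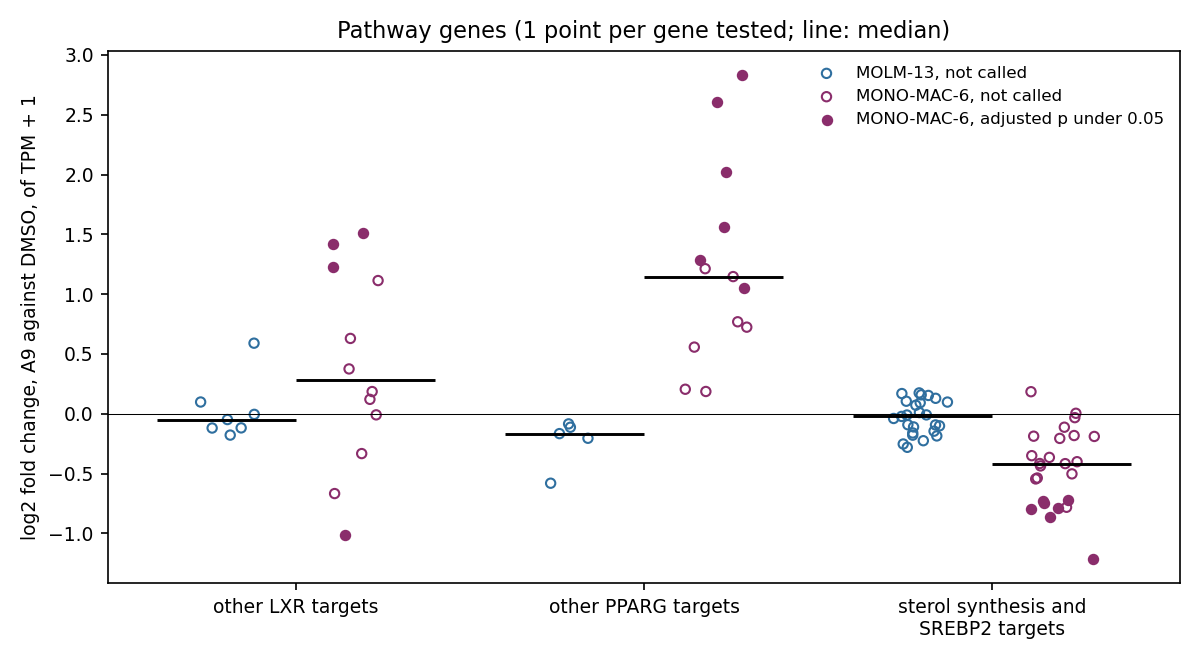
Log2 fold change of TPM + 1, A9 against DMSO, for each expressed gene of the lists of other LXR targets, other PPARG targets and sterol genes, by line, filled where the adjusted p was under 0.05 and with black lines for medians. In MONO-MAC-6 the medians are 0.28, 1.15 and -0.42, and no point is filled in MOLM-13. For the LXR and PPARG targets that reached 1 TPM in both MONO-MAC-6 groups the medians were 0.15 and 0.77.

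The genes whose pattern was most like each member were sought over the 12 samples, after centring log2(TPM + 1) within each line, among genes that reached 5 TPM on average in each line. CES1 was closest to ALDH2 (Pearson r 0.994), IFI30 (0.991) and PLIN2 (0.985). NR1H3 was closest to BAIAP2 (0.963), SQOR (0.960) and TYROBP (0.941), and SMPDL3A to STXBP2 (0.957), GYPC (0.953) and KPTN (0.950). NR1H2 was closest to CCDC124 (0.924), SCRIB (0.894) and STK11 (0.881). MYLIP was closest to DEPDC1B (0.965), FAM72B (0.965) and HMGCS1 (0.964), the last a sterol synthesis gene. LPCAT3 was closest to ZSCAN9 (0.984), RANBP9 (0.981) and FRYL (0.977). Among the members, CES1 and NR1H3 had an r of 0.917, CES1 and PPARG 0.831, and MYLIP and NR1H3 -0.733. The samples share lines, treatment and DMSO sample 1, so these correlations are a description.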

How the data were processed

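Bulk RNA was sequenced in 36 libraries. Per the labels' protocols, poly(A) RNA went into NEBNext libraries that were read from both ends. The deposited values are TPM, 1 per Ensembl transcript and library, computed by the authors; kallisto, limma and GRCh38 are named in the submitters' processing notes, without versions or roles, and the annotation release is not given in the sources used here.

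Of 207175 transcripts, 162561 (78.5%) matched GENCODE 29 (GRCh38) by identifier and held 89.9% to 91.4% of TPM. They were summed by symbol, libraries of a first number were averaged, and log2(TPM + 1) of genes reaching 1 TPM on average in either group was fitted with limma 3.58.1 (R 4.3.3; eBayes with trend and robust). Two-sided p-values received the Benjamini-Hochberg adjustment across every gene in the fit, 11596 in MOLM-13, 12869 in MONO-MAC-6 and 13410 for the difference between lines. Transcript TPM carry no depth, and p-values measure the spread between these samples. On simulated data with independent noise, the MOLM-13 fit recovered 84.5% of 200 genes changed by 1.5 (log2), with 10 false calls, and the MONO-MAC-6 fit 78%, with 12. With nothing changed there were 0.

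The members, gene lists and alternatives were chosen with earlier results of these data known. Named were the members, up to 6 called genes of each list and line, SREBF1, SREBF2 and RXRA, and the 3 genes most like each member; some other genes of the rule are not reported here. The alternatives were another pseudocount, filter, threshold, replicate unit, scaling and variance model, a replicate block, removal of the length trend, the leading transcript, and leaving out each sample. Tables and figures used Python 3.11.15, pandas 2.3.3 and matplotlib 3.10.9.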

Additional observations from a re-analysis of the deposited data

Results flagged for a closer look

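The A9 effect of 16 pathway genes named in the report differed between the lines in the interaction fit over 12 samples, in which the dose differed along with the line. These genes were named because they passed in MONO-MAC-6 while 0 of their lists' genes passed in MOLM-13, so the difference was largely set by that choice and is no independent result. The differences are MONO-MAC-6 minus MOLM-13 on the log2(TPM + 1) scale. They are a description, and no p-value is given for them because of that choice. Among genes raised in MONO-MAC-6 they were 2.99 for OLR1, 2.60 for FABP4, 1.96 for CYP27A1, 1.52 for CIDEC, 1.496 for APOC1, 1.45 for PLIN2, 1.39 for MERTK, 1.22 for APOE and 1.05 for PDK4. Of these 9, PLIN2 alone reached a mean of 1 TPM in a MOLM-13 group, and the other 8 were under it in both MOLM-13 groups. Among genes lowered in MONO-MAC-6 they were -1.34 for INSIG1, -0.96 for MSMO1, -0.86 for MVK, -0.85 for MVD, -0.85 for ACAT2, -0.83 for SREBF1 and -0.74 for FDPS. All 7 passed the filter in MOLM-13. MSMO1 (8.06 to 9.18 TPM) and MVD (43.8 to 47.1 TPM) had every MOLM-13 A9 sample above every DMSO sample, the opposite side from MONO-MAC-6. They were 2 of the 25 sterol genes tested, and 8.59% of all MOLM-13 genes had that separation. Neither passed in MOLM-13, and nothing is read from their side there.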

How the results depend on the processing

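All counts are genes with a limma adjusted p under 0.05, main counts first. Over all genes, 14 in MOLM-13 became 4 with no filter, 48 with median-ratio scaling, 182 with the length trend removed and 4 at a threshold of 0.01. The 433 in MONO-MAC-6 became 254 with no filter, 1174 with the length trend removed and 109 at 0.01, and the 401 for the difference between lines became 793 and 146 with the last 2 settings. Each library as its own sample gave 1742, 5582 and 5616, and averaging by second number 5437, 8701 and 8502, in MOLM-13, MONO-MAC-6 and the difference. The replicate block gave 87, 102 and 207. Same-numbered A9 and DMSO samples correlated at -0.0274, 0.0876 and -0.0908 in MONO-MAC-6, and differently numbered ones between -0.129 and 0.130. As DMSO sample 1 lay apart in that line, such low values cannot exclude a pairing by number. In MOLM-13 they correlated at 0.361, -0.0772 and 0.676, but A9 sample 2 and DMSO sample 1 also did at 0.631. On the first principal component of MOLM-13 (67.6% of the variance), A9 sample 3 stood at -38.0 and DMSO sample 3 at -14.8. The other samples of that line stood between 0.922 and 31.2. Whether the numbers pair the samples is therefore undecided in both lines, and the main fits use no pairing. Leaving out 1 sample gave 2 to 8, 59 to 3202 (the highest without MONO-MAC-6 DMSO sample 1) and 197 to 549. In MONO-MAC-6 the 7 sterol genes became 17 by library, 23 by second number, 1 with the replicate block, 12 with scaling, 18 with the length trend removed, 2 at 0.01, and 0 to 23 leaving out 1 sample. The 4 other LXR targets became 9, 8, 1 with the replicate block, 8 with the length trend removed, 2 at 0.01 and 0 to 8. The 6 other PPARG targets became 11 by library, 12 by second number and 4 to 10 leaving out 1 sample. In MOLM-13 the lists' counts of 0 became 2 (sterol), 1 (LXR) and 2 (PPARG) by library and 15, 3 and 3 by second number, with 1 LXR target with the length trend removed. Over the members' values under these alternatives, 231 moved by less than the spread between samples and 21 by more. Depth is unknown from TPM, which limits what can be said of genes under 1 TPM such as ABCA1 and ABCG1.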
